A study of Mus musculus with 6 samples.

Results

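The genes described here are 9 components of the outermost layer of the epidermis: Flg, Flg2, Hrnr, Sbsn, Lor, Ivl, Casp14, Tgm1 and Tgm3. They were chosen by gene symbol, and all 9 were found among the 48377 symbols of the deposited count table. RNA came from the skin of Db/Db mice, a strain that lacks a working leptin receptor and becomes obese and diabetic. All 6 libraries share that genotype, and they were made after 16 days under vehicle (3 libraries labelled DMSO) or under vemurafenib at 1 uM (3 libraries labelled PLX4032). Vemurafenib, also called PLX4032, is an inhibitor of mutant BRAF kinase. The labels give no age or sex and do not tie each library to a mouse of its own, and p-values here therefore measure only differences among these 6 libraries, which can be technical. No untreated skin and no skin of mice with an intact leptin receptor was analysed here, so both groups carry the diabetic background.

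As background, keratinocytes that leave the basal layer of the epidermis stop dividing, fill with keratin and die as flat corneocytes. Profilaggrin and its relatives are stored in granules of the uppermost living cells, and profilaggrin is cut into filaggrin, which bundles keratin and is later broken down into amino acids that hold water. Beneath the membrane, transglutaminases cross-link proteins such as involucrin and loricrin into the cornified envelope, the insoluble shell that gives skin its barrier.

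Few reads were counted. Vehicle libraries 1 to 3 had totals of 22985, 14189 and 48798 counts, and vemurafenib libraries 1 to 3 had 78434, 20796 and 38293. A gene with no count can therefore lie at up to 131, 211 and 61.5 CPM (counts scaled to a library total of 1000000) in the vehicle libraries and at up to 38.2, 144 and 78.3 CPM in the vemurafenib libraries, by counting error alone. The member genes together held 348 counts in the 6 libraries. Counts under a symbol need not match the abundance of its mRNA in these data: Gapdh and Actb held 6 and 47 counts, and Tsix held 704 while Xist, on the opposite strand of the same locus, held 35. The setting for strand in the counting is not given in the sources used here, and its part in the levels of the member genes was not tested. Markers of skin were counted unevenly: Krt1 held 107 counts, Krt10 96, Krt14 166 and Col1a1 2950, whereas Krt5 held 47, Krt15 5, Dcn 4, Lum 3, and Krt2 and Adipoq 0.

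Of the 9 members, 5 stand on chromosome 3 (mm10) in the epidermal differentiation complex, a cluster of genes for cornification. Flg2 (3:93197278-93221391), Flg (3:93273523-93293686) and Hrnr (3:93319749-93333570) follow each other on the plus strand. Lor (3:92080271-92083142) and Ivl (3:92570902-92573735) lie on the minus strand. Sbsn is at 7:30751471-30756134 on the plus strand, Casp14 at 10:78711991-78718294 and Tgm1 at 14:55700009-55713926, both on the minus strand, and Tgm3 at 2:130012349-130050399 on the plus strand. GENCODE M21 lists 5 features that overlap these loci, 3 of them on the opposite strand. Of those 3, the ones at Hrnr and Tgm3 held 0 counts and the one at Tgm1 is not a row of the table, so 0 opposite-strand partners of a member held counts.

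Flg, Flg2 and Hrnr encode long repeat proteins, and the repeats bear on how their reads can be counted. The most repeated 50-base stretch of the coding sequence of each is shown with that of Sbsn, which serves as a contrast. The sequences are from GENCODE M21 on mm10, on the coding strand, and the length of 50 is an assumed read length, since the true one is not given in the sources used here.

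Flg: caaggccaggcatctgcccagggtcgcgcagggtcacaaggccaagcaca

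Flg2: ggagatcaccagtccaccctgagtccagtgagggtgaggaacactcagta

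Hrnr: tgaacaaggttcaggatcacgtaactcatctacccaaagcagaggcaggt

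Sbsn: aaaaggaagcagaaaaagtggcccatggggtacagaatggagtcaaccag

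These stretches occurred 17, 55, 16 and 3 times, respectively, within the longest transcript of their own gene. For Flg, Flg2 and Sbsn that transcript is not annotated as coding, and in Sbsn it retains an intron. Their shares below are therefore not those of a coding mRNA. In Flg, 79.2% of all 50-base stretches of its longest, 14497-base transcript occurred more than once in it, most often 750 bases apart. The share was 69.1% in Hrnr, with a commonest distance of 1044 bases, and 65.3% in Flg2, with 234 bases. By the same measure it was 5.7% in Sbsn, 0.4% in Ivl and 0.0% in Lor, Casp14, Tgm1 and Tgm3. No 50-base stretch of Flg, Flg2 or Hrnr occurred in the transcripts of another gene, so their repeats are within genes and not between them. In Sbsn, 9.58% of the stretches also occurred in Tmem147os, an overlapping feature on the same strand that held 1 count. In Tgm1, 4.78% occurred in the opposite-strand feature Gm49067, and in Ivl 0.69% occurred in other genes. Sbsn is thus a contrast for repeats alone. A read from a repeat of Flg, Flg2 or Hrnr has several equally good places in its own gene. How those reads were treated in counting is not given in the sources used here, and the levels of Flg, Flg2 and Hrnr are uncertain for that reason.

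Some members share a short motif near their start sites. The RefSeq windows (GRCm38.p6, 250 bases before to 50 after each start) were found for 9 of 9 members. TGANTCA covers TGACTCA and TGAGTCA, the usual letters bound by AP-1 factors such as Fos and Jun, which act downstream of RAF and ERK signalling. TGANTCA also allows the looser TGAATCA and TGATTCA. It was searched on both strands and was present in the windows of 5 of 9 members. It was present in 7.81% of all 32851 windows. The 5 members are Flg, Flg2, Sbsn, Lor and Ivl, and 1 match of each is printed in capitals with 20 bases on each side, because the motif is found in genes of both the filaggrin family and the envelope.

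Flg: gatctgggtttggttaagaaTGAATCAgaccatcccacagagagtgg

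Flg2: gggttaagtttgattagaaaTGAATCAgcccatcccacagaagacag

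Ivl: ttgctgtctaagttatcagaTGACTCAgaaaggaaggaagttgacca

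Lor: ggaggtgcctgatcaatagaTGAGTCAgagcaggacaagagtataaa

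Sbsn: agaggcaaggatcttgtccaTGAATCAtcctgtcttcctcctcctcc

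The stretches lie at chr3:93273423-93273469 on the plus strand for Flg, chr3:93197184-93197230 on the plus strand for Flg2, chr3:92573825-92573871 on the minus strand for Ivl, chr3:92083164-92083210 on the minus strand for Lor and chr7:30751332-30751378 on the plus strand for Sbsn. The motif begins 103 bases before the start in Flg, 69 in Flg2, 116 in Ivl, 48 in Lor and 119 in Sbsn. A further match in Sbsn, TGAGTCA, begins 6 bases before its start. The printed matches of Flg, Flg2 and Sbsn are the looser TGAATCA, and those of Flg and Flg2 have flanks that are much alike. TATAAA was present in 5 of 9 members (Flg, Hrnr, Lor, Ivl and Tgm3) against 13.62% of all windows, and CACCC, the core bound by KLF factors, in 8 of 9 against 57.52%. TATATAA was in 2 of 9 (3.24% of all windows), GGGTGTGG, a longer KLF motif, in 2 of 9 (3.56%) and CATTCCA, a TEAD motif, in 1 of 9 (4.29%), and every GGGTGTGG match holds CACCC on its other strand. A match of letters is a description of the window and not a measured binding site.

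Flg and Sbsn carried most of the counts. Sbsn, which encodes suprabasin, a secreted protein of the suprabasal layers, held 152 counts, or 43.7% of the total of all members. Flg, which encodes profilaggrin, held 130 counts, or 37.4%. Lor held 18, Ivl 15, Tgm1 13 and Casp14 11 counts, and Hrnr, Tgm3 and Flg2 held 4, 3 and 2. Only Flg and Sbsn passed the filter on low counts, and every member that did not is described below by its counts.

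**Figure D1:**
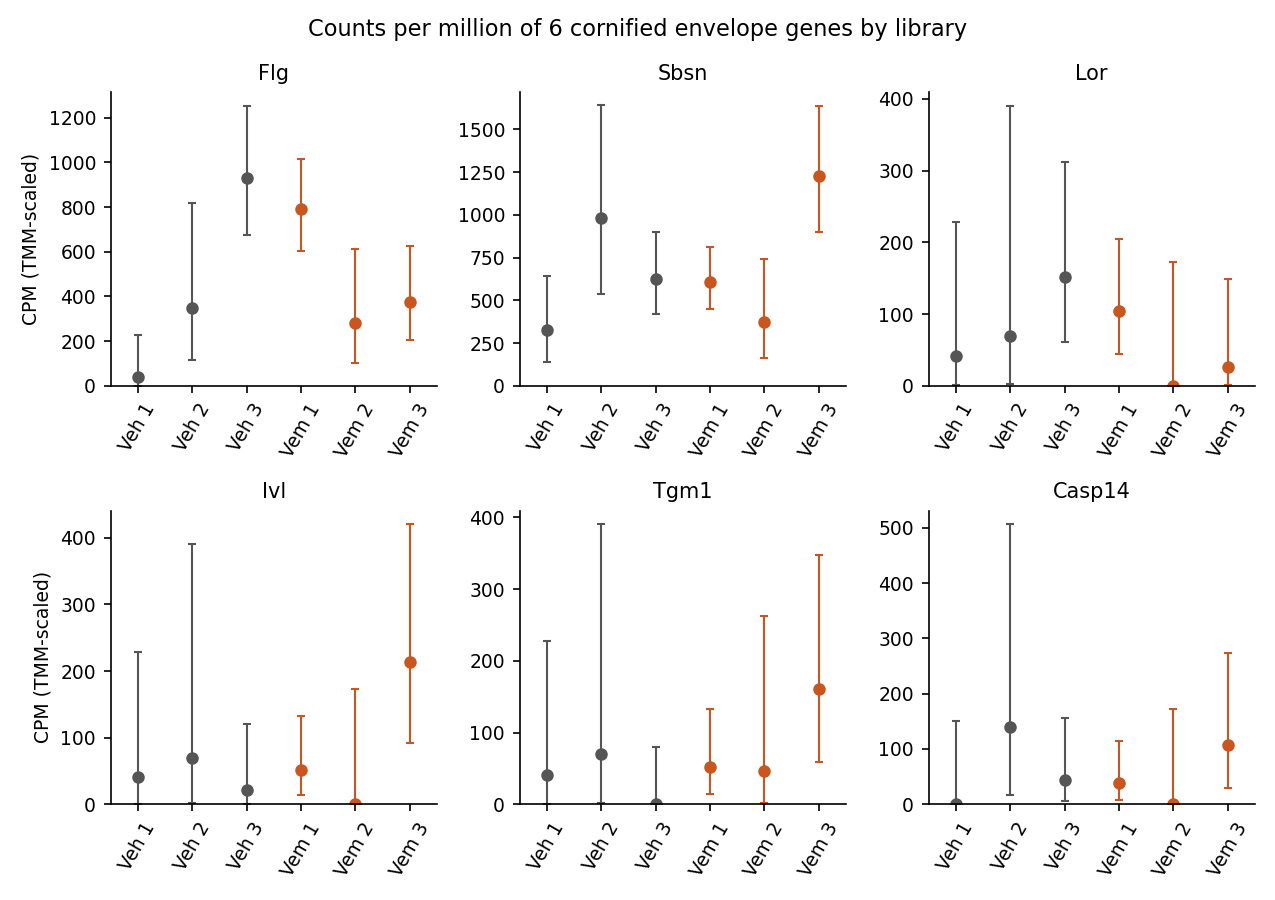
TMM-scaled CPM of Flg, Sbsn, Lor, Ivl, Tgm1 and Casp14 (1 panel each, linear axes from 0 that differ in range) in each library, grey for vehicle and orange for vemurafenib, with 95% exact Poisson intervals as bars. The groups overlap in all 6 panels, and Flg ranges from 40.9 to 930 CPM within the vehicle group.

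Among the filaggrin family, Flg had 1, 5 and 43 counts in the vehicle libraries, in order of their number, and 61, 6 and 14 in the vemurafenib libraries. These are 40.9, 350 and 930 CPM under vehicle and 791, 282 and 373 CPM under vemurafenib. Vehicle 3 and vemurafenib 1, the 2 deepest libraries, were the highest, and the groups overlapped. The spread within the vehicle group was beyond counting error: the 95% exact Poisson interval was 1.04 to 228 CPM in vehicle 1 and 673 to 1253 CPM in vehicle 3. In the vemurafenib group the interval of vemurafenib 3 (204 to 626 CPM) touched that of vemurafenib 1 (605 to 1016 CPM). The other members of the family were barely counted. Flg2, whose product is also broken down into amino acids in corneocytes, had 1 count in vehicle 3 and 1 in vemurafenib 1. Hrnr, which encodes hornerin, had 1 count in vehicle 1, 1 in vemurafenib 1 and 2 in vemurafenib 3. The levels of Flg2 and Hrnr cannot be told from the floor at this depth. All 3 genes of the family hold dense repeats, as shown above, and the part of the repeats in their counts was not tested.

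Among the envelope proteins, Sbsn was counted best. It had 8, 14 and 29 counts under vehicle and 47, 8 and 46 under vemurafenib, which are 327, 980 and 627 CPM and 609, 376 and 1227 CPM. Vemurafenib 3 was the highest and vehicle 1 the lowest library, and the groups overlapped. Lor encodes loricrin, the most abundant protein of the envelope in mature epidermis, and had 1, 1 and 7 counts under vehicle and 8, 0 and 1 under vemurafenib (40.9, 70 and 151 CPM, and 104, 0 and 26.7 CPM). As for Flg, vehicle 3 and vemurafenib 1 were the highest. Ivl encodes involucrin, an early scaffold of the envelope, and had 1 count in each vehicle library and 4, 0 and 8 under vemurafenib (40.9, 70 and 21.6 CPM, and 51.9, 0 and 213 CPM). Both of its extremes lay within the vemurafenib group.

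Among the enzymes, Tgm1, the membrane-anchored transglutaminase of keratinocytes, had 1, 1 and 0 counts under vehicle and 4, 1 and 6 under vemurafenib (40.9, 70 and 0 CPM, and 51.9, 46.9 and 160 CPM). Casp14, a protease of cornifying cells that takes part in the breakdown of filaggrin, had 0, 2 and 2 counts under vehicle and 3, 0 and 4 under vemurafenib (0, 140 and 43.3 CPM, and 38.9, 0 and 107 CPM). Tgm3, a transglutaminase of the epidermis and of the hair follicle, had 0 counts in all 3 vehicle libraries and 0, 1 and 2 under vemurafenib. The 3 counts of Tgm3 in the vemurafenib group equal the floor of 3 counts set for a count of 0, so no fold is given. For every enzyme the vemurafenib libraries spanned the level of at least 1 vehicle library.

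Levels can be compared between genes only per length of exon. Per kb of merged GENCODE exon, Sbsn was the highest with a mean of 191 CPM per kb over the 6 libraries (range 90.3 to 338). Lor followed with 36.8 (0 to 85.1), Ivl with 34.5 (0 to 111), Flg with 24.5 (2.17 to 49.4), Casp14 with 22.9 (0 to 58.5) and Tgm1 with 19.5 (0 to 50.6 CPM per kb). Tgm3 (4.04), Hrnr (1.6) and Flg2 (0.277 CPM per kb) came last. Sbsn lay above Lor in 6 of 6 libraries and their ranges did not overlap. All other neighbours in this order overlapped in range, so Flg, second by counts, cannot be placed against Lor, Ivl, Casp14 or Tgm1 on this scale. The exon length of Flg, 18829 bases, includes models that are not coding, and much of it is repeated, which bears on its place.

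**Figure D2:**
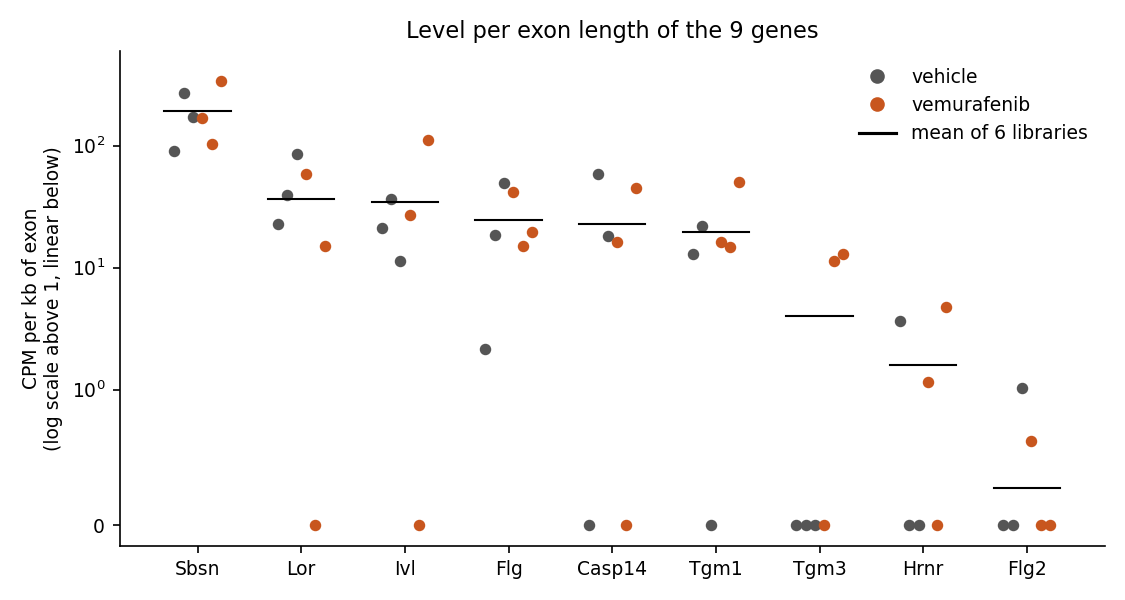
CPM per kb of merged exon for each of the 9 genes, 1 point per library (grey vehicle, orange vemurafenib) and a line at the mean of 6 libraries, on an axis that is logarithmic above 1 and linear below. Sbsn stands apart at a mean of 191, and every other neighbouring pair overlaps in range.

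The mix of members differed between libraries of the same group. The share of Flg in the member total was 7.69% in vehicle 1 (95% Clopper-Pearson interval 0.195 to 36), 20.8% in vehicle 2 (7.13 to 42.2) and 51.8% in vehicle 3 (40.6 to 62.9). It was 47.3% in vemurafenib 1 (38.4 to 56.3), 37.5% in vemurafenib 2 (15.2 to 64.6) and 16.9% in vemurafenib 3 (9.54 to 26.7). The intervals of vemurafenib 1 and vemurafenib 3 did not overlap, nor did those of vehicle 1 and vehicle 3, so the mix varied within both groups by more than counting error. Flg per Sbsn count was 0.125, 0.357 and 1.48 under vehicle and 1.3, 0.75 and 0.304 under vemurafenib. Over the 6 libraries the log2 CPM of Flg and Sbsn had a Pearson r of 0.48 and a Spearman rho of 0.54, given as a description of libraries that also differ in depth.

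**Figure D3:**
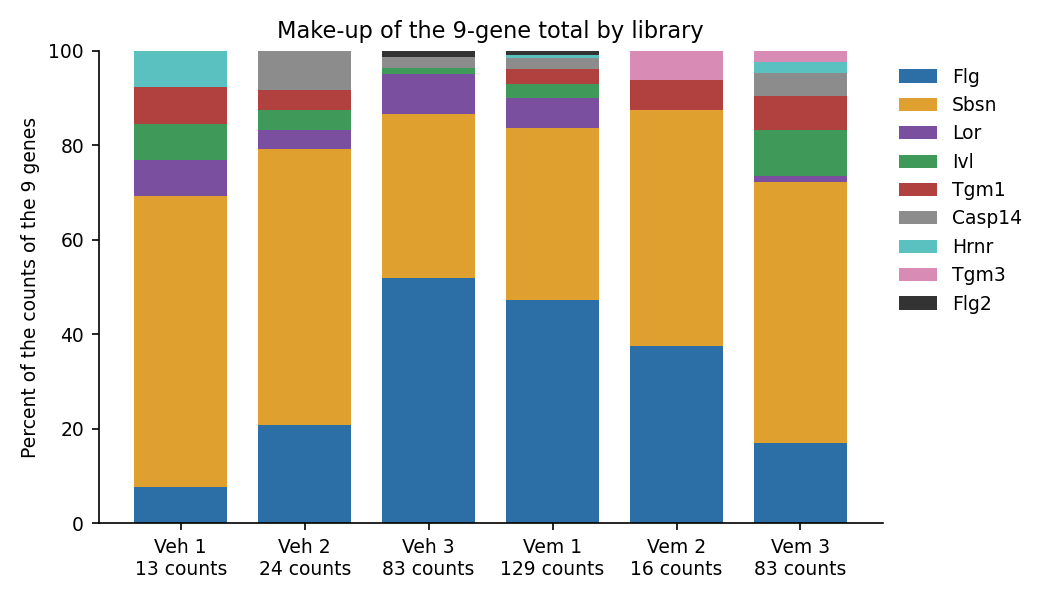
Stacked bars of the percent of the 9-gene count total that each gene holds in each library, with the total count under each bar. Flg takes 51.8% in vehicle 3 and 47.3% in vemurafenib 1, and 7.69% in vehicle 1, where the total is 13 counts.

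Flg was set beside the keratins of the layer below the one that makes it. Krt1 and Krt10, the keratins of suprabasal keratinocytes, together lay at 1269, 1470 and 714 CPM under vehicle and at 454, 1174 and 1547 CPM under vemurafenib. Vehicle 3 and vemurafenib 1, where Flg was highest, were lowest for this sum and for Krt1 alone (281 and 285 CPM). Krt10 alone was lower in vehicle 1 (286 CPM) than in vehicle 3 (433 CPM). Krt78, also on the suprabasal list and named after its values were seen, held 11 of its 14 counts in vehicle 3. Member counts per Krt1 and Krt10 count were accordingly 0.419, 1.14 and 2.52 under vehicle and 3.69, 0.64 and 1.43 under vemurafenib. For Flg alone the ratios were 0.0323, 0.238 and 1.3, and 1.74, 0.24 and 0.241. In whole skin, fewer cells of a type and less RNA per cell cannot be told apart, and Krt10 is itself overlapped on the opposite strand by Gm11940, which held 357 counts, so its count is uncertain.

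The study's comparison asks what 16 days of vemurafenib changed in diabetic skin. No change of a member was detectable at this depth. Groups were separated without overlap for 0 of the 9 members, against 8.81% of the 477 genes counted deeply enough to be tested (4.61% higher and 4.19% lower under vemurafenib). Only 2 members are among those 477, and for the 6 members with at least 10 counts the share over all 4697 such genes was 10.5%. By edgeR's quasi-likelihood test with Benjamini-Hochberg adjustment, 0 of the 2 tested members passed at an adjusted p under 0.05, and 0.0% of the 477 tested genes did. At an unadjusted p under 0.05, edgeR called 23 genes (4.82%), none of them a member, DESeq2 14 and limma-voom 40, and neither DESeq2 nor limma-voom called a gene after adjustment.

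Flg lay at 440 ± 452 CPM under vehicle and 482 ± 271 CPM under vemurafenib (SD, n = 3 each). Its log2 fold change was 0.07 ± 0.65 (standard error), with a 95% interval of -1.34 to 1.48 and an edgeR adjusted p of 0.995. Sbsn lay at 645 ± 327 and 737 ± 440 CPM, with a log2 fold change of 0.27 ± 0.49, an interval of -0.75 to 1.29 and an edgeR adjusted p of 0.995. Both intervals hold 0 and changes in either direction. The Flg value rests on single libraries: without vehicle 3 it was 1.68 (edgeR adjusted p = 0.998), without vemurafenib 1 it was -0.57, and without vehicle 1 it was -0.44. For Sbsn the sign turned without vemurafenib 3 (-0.26) and without vehicle 1 (-0.08), and the largest value, 0.61, came without vehicle 2.

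**Figure D4:**
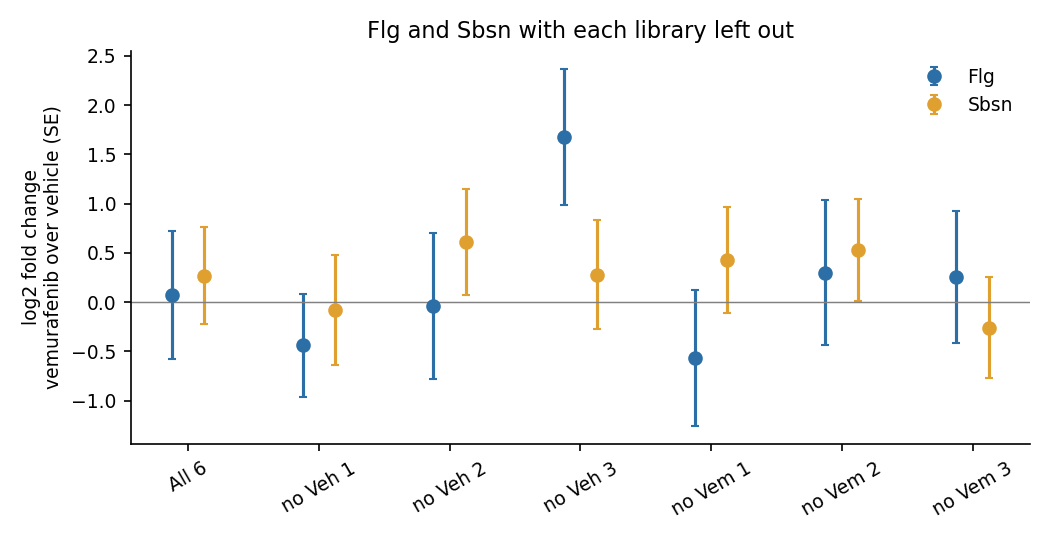
Log2 fold change (vemurafenib over vehicle) of Flg and Sbsn from all 6 libraries and with each library left out, the same genes kept, with standard errors as bars. Flg moves from -0.57 to 1.68 and Sbsn from -0.26 to 0.61.

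The 7 members under the filter gave wider limits. Pooled ratios of vemurafenib to vehicle were taken over plain library totals, without TMM scaling, so the deepest libraries weigh most. They were 0.625 for Lor (95% counting interval 0.22 to 1.78), 2.5 for Ivl (0.675 to 13.8), 1.09 for Casp14 (0.278 to 5.1) and 3.44 for Tgm1 (0.75 to 31.9). The means of the libraries ran the other way for Casp14, at 61.1 ± 71.7 CPM under vehicle and 48.5 ± 54 CPM under vemurafenib (SD, n = 3 each). Every one of these 4 ratio intervals holds 1 and leaves out the spread between libraries. In a fit that kept all genes with at least 10 counts in total, chosen after seeing the data, the log2 fold change was -0.69 ± 0.88 for Lor and 1.27 ± 1.03 for Ivl. In the same fit it was 0.12 ± 1.05 for Casp14 and 1.65 ± 1.13 for Tgm1, and the edgeR adjusted p was 0.999 for each of the 4. Ivl and Tgm1 reached 10 counts only through the vemurafenib group (12 and 11 counts, against 3 and 2 under vehicle), so their values are descriptions. Without vehicle 3 the Lor value was 0.18, so its sign also rests on 1 library. The summed members lay at 532, 1680 and 1796 CPM under vehicle and at 1673, 751 and 2213 CPM under vemurafenib. The sum overlapped between groups, and its pooled ratio was 1.19 (0.948 to 1.49).

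Other genes of the cornified envelope were described from a list of 46, of which 33 had a count and 4 were tested: Dsp, Ppl, Evpl and Rptn. None of the 4 passed, all 4 had log2 fold changes above 0, and their median was 1.15, against 0.02 for all tested genes. Dsp encodes desmoplakin, which ties keratin to desmosomes, and lay at 646 ± 339 CPM under vehicle and 1391 ± 454 CPM under vemurafenib (SD, n = 3 each). Its groups did not overlap, as for 4.61% of tested genes in that direction, and its log2 fold change was 1.20 ± 0.47 (edgeR adjusted p = 0.874). An opposite-strand feature, Gm10129, held 171 counts, so the count of Dsp is uncertain. Ppl encodes periplakin, which joins the envelope to keratin, and had a log2 fold change of 1.46 ± 0.58 (edgeR adjusted p = 0.874). Evpl, for its partner envoplakin, was at 0.83 ± 0.45, and Rptn, for repetin, another fused S100-type protein of the filaggrin family, at 1.09 ± 0.77 (edgeR adjusted p = 0.966 for each).

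Rptn (3:93393699-93399442) lies beyond Hrnr in the chromosome 3 cluster. It had 4, 18 and 5 counts under vehicle and 107, 8 and 29 under vemurafenib, which are 164, 1260 and 108 CPM and 1387, 376 and 773 CPM. Its value moved from 0.45 without vehicle 3 to 2.78 without vehicle 2. Tchh, which encodes trichohyalin of the inner root sheath and lies farther along (3:93442330-93449077), had 6, 7 and 2 counts under vehicle and 13, 3 and 245 under vemurafenib. Its level of 6533 CPM in vemurafenib 3 stood beside the highest Ivl, Tgm1 and Sbsn levels, in the same library. The inner root sheath markers together lay at 246, 490 and 64.9 CPM under vehicle and at 169, 141 and 7706 CPM under vemurafenib. Their part in the levels of the members in vemurafenib 3 was not tested.

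**Figure D5:**
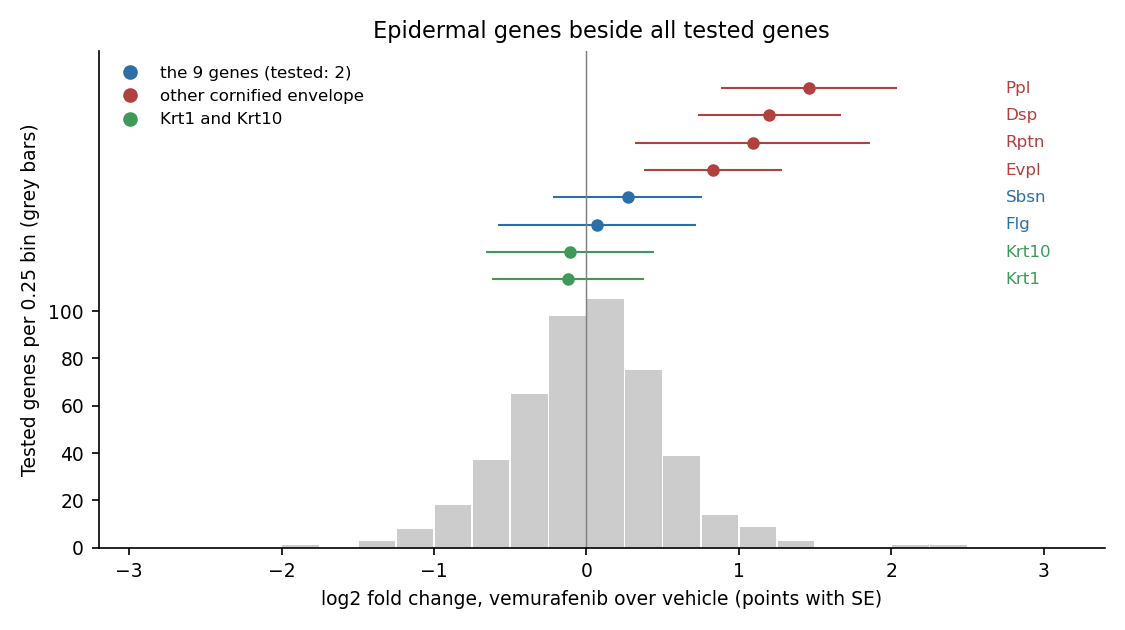
Log2 fold changes (points, standard errors as bars) of Flg and Sbsn (blue), 4 other cornified envelope genes (red) and Krt1 and Krt10 (green), above a histogram of all 477 tested genes in bins of 0.25. Flg and Sbsn lie at 0.07 and 0.27, near the median of 0.02, and Dsp, Ppl, Evpl and Rptn lie above it.

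Genes that process filaggrin, build the lipid envelope or regulate terminal differentiation were too sparsely counted for the filter, with 0 tested of 13, 13 and 15. With at least 10 counts in total, where 0.0639% of 4697 genes passed edgeR's adjusted threshold and 10.5% separated the groups (6.83% higher and 3.68% lower under vemurafenib), 6, 3 and 11 of them could be fitted and none passed. At an unadjusted p under 0.05, 3, 1 and 1 did, against 5.41% of the 4697 genes. A gene can reach 10 counts through 1 group alone, and the vemurafenib group held more counts in total (137523 against 85972). Furin, a protease that can cut the N-terminal part of profilaggrin, had 4, 8 and 13 counts under vehicle and 27, 4 and 8 under vemurafenib, and its opposite-strand feature Gm44851 held 18, so its count is uncertain. Klk7, a protease that sheds corneocytes, was chosen after its values were seen, and had 0 counts in all vehicle libraries and 9, 2 and 10 under vemurafenib. Klk7 thus reached 10 counts only through the vemurafenib libraries, and it did not pass in that fit (edgeR adjusted p = 0.0956). Its pooled level under vemurafenib (21 counts, 153 CPM) was 4.38-fold that of a floor of 3 counts over the vehicle group (34.9 CPM). That ratio leaves out the counting error of the 21 counts and the spread between libraries. It is a description and not a lower limit. Elovl4, which makes very long fatty acids for barrier lipids, had 1, 1 and 0 counts under vehicle and 4, 5 and 12 under vemurafenib. Its log2 fold change was 2.71 ± 0.95 (edgeR adjusted p = 0.456). It also reached 10 counts only through the vemurafenib libraries, so that value is a description. Of the 11 regulators, 7 lay above 0 and 4 below. Maf, a transcription factor that acts in the differentiation of human keratinocytes, had 10, 3 and 14 counts under vehicle and 31, 2 and 4 under vemurafenib, beside 74 for Gm15655 on the opposite strand. Klf4, a factor needed for the barrier and also chosen after its values were seen, had 2, 1 and 7 counts under vehicle and 15, 5 and 17 under vemurafenib (log2 fold change 1.33 ± 0.63, edgeR adjusted p = 0.866).

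Markers of the cells in the skin were set beside the members. Krt1 and Krt10 had log2 fold changes of -0.12 ± 0.50 and -0.11 ± 0.55. The basal keratinocyte genes Krt14 and Col17a1 were at 0.78 ± 0.61 and 0.07 ± 0.53. A further pair of keratins, under the filter and named after their values were seen, could be fitted with at least 10 counts in total. Krt5, the partner of Krt14, had 1, 3 and 1 counts under vehicle and 19, 6 and 17 under vemurafenib. Its groups did not overlap, as for 6.83% of genes with at least 10 counts in that direction. Its log2 fold change was 2.31 ± 0.71 (edgeR adjusted p = 0.24), and it reached 10 counts only through the vemurafenib libraries. An opposite-strand feature, Gm44323, held 127 counts, so the count of Krt5 is uncertain. Krt78, a suprabasal keratin, had 1, 0 and 11 against 2, 0 and 0 counts, with overlap, and was at -2.87 ± 1.05 (edgeR adjusted p = 0.465). It reached 10 counts only through the vehicle libraries. Krt17, a keratin of wound-edge and hair follicle keratinocytes, was at 2.02 ± 0.56 (edgeR adjusted p = 0.242). All 9 tested genes of 12 dermal fibroblast markers lay below 0, with Col6a3 at -0.99 ± 0.45 and Col5a2 at -1.01 ± 0.50. Summed fibroblast markers were at 35275, 51449 and 79749 CPM under vehicle and 39766, 46527 and 21892 CPM under vemurafenib. Vehicle 3, with the highest fibroblast and the highest Flg level, and vemurafenib 3, with the lowest fibroblast level, lie at the ends of this range, and the part of tissue composition in the member levels was not tested. Among adipocyte markers Lipe was at 0.65 ± 0.62, with 41 counts for 4732471J01Rik on its opposite strand, so its count is uncertain. Summed levels overlapped between groups for sebaceous gland markers (70 to 327 CPM, and 246 to 507 CPM), adipocyte markers (238 to 573, and 415 to 1333 CPM) and macrophage markers (490 to 563, and 453 to 661 CPM). Summed levels did not overlap for skeletal muscle markers (389 to 630 CPM under vehicle, 311 to 373 CPM under vemurafenib), wound-edge keratinocyte markers (43.3 to 859, and 939 to 1840 CPM) and the regulators of terminal differentiation (1400 to 1666, and 1711 to 2400 CPM). Sums overlapped for the basal and suprabasal keratinocyte, other cornified envelope, filaggrin processing and lipid envelope lists. Of the muscle markers, Ttn held 40 and Atp2a1 37 counts, whereas Acta1, Myh1 and Myh4 held 0. Atp2a1 had a mean of 165 CPM in each group. Among the wound-edge keratins only Krt17 separated the groups, and Krt6a, Krt6b and Krt16 overlapped. Single genes with at least 10 counts separated the groups in 10.5% of cases. Sums over lists were not tested.

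Of 475 tested genes outside the members, 5 had a Pearson r of at least 0.9 with the log2 CPM of the member total over the 6 libraries. With clone and predicted symbols left out, among them the gene of rank 4, the most alike were Prrc2a (Pearson r = 0.94), Macf1 (0.93), Kmt2d (0.93), Kcnq1ot1 (0.92) and Hnrnpu (0.89). The median r was -0.04 and the range -0.90 to 0.94, over libraries that share their depth with every gene. No keratin or envelope gene was among those named.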

How the data were processed

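Raw read counts for each gene symbol were deposited by the authors in 1 table. Per the labels' protocols, poly(A) RNA from skin was made into stranded single-end libraries with a KAPA kit, and per the submitters' processing notes HISAT2 and HTSeq were used on mm10. Tool versions, the annotation and the strand setting are not stated in these sources. A single further column (1) matches no sample and was left out. The member genes and lists were chosen with earlier results of these data known.

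Counts were analysed as deposited, with edgeR 4.0.16 in R 4.3.3: filterByExpr (minimum count 10, minimum total 15), TMM scaling, the robust quasi-likelihood test with group as the only term, and Benjamini-Hochberg adjustment over all 477 tested genes, at 0.05. The common biological coefficient of variation was 0.327. CPM use TMM-adjusted totals, but pooled ratios and the ratio of Klk7 to the floor use plain totals. Floors are 3 counts over the plain total. All such limits concern counting error alone. The fit was tested on simulated data. For likeness, a prior count of 2 was added before taking log2 CPM. The text names all 9 members, and of each list the 2 tested genes with the smallest p, or the gene with most counts where none was tested, unless it says that a gene was chosen after its values were seen. Evpl and Rptn were added to complete the 4 tested envelope genes. Of the symbols, 99.2% were found in GENCODE M21, which gave positions and merged exons. Alternatives were DESeq2 1.42.0, limma-voom 3.58.1, other scalings and filters, the replicate number as a block, and leaving out each library.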

Additional observations from a re-analysis of the deposited data

How the results depend on the processing

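Under other settings no member passed the threshold. The count of genes that passed was 0 with edgeR, DESeq2 and limma-voom; it was 3 with no filter beyond 1 count (Gm43937, Gm12744 and Pitx3) and 3 with at least 10 counts in total (Gm43937, Gm12744 and 2310002F09Rik), and 0 to 2 when 1 library was left out (Gm43937 and Gm12744 without vemurafenib 1). With the same genes kept, it was 1 without vemurafenib 1 (Gm12744) and 1 without vemurafenib 2 (Tmem198b). None is a member or on a list, and all were named after their values were seen. On the opposite strand of listed genes lie 2310002F09Rik (Klk14, 287 bp of exon) and Pitx3 (Elovl3, 10 bp), so their counts are uncertain. With no filter the median log2 fold change of all 16695 genes shifted to 0.42. The log2 fold change of Flg was -0.12 with limma-voom and ranged from -0.57 to 1.68 when 1 library was left out with the same genes kept (-0.44 without vehicle 1), and from -0.47 to 0.33 with the filter repeated. In these ways Sbsn ranged from -0.26 to 0.61 and from -0.19 to 0.58, Lor from -2.33 to 0.18 and Casp14 from -0.37 to 0.43, and Casp14 was -0.04 with DESeq2. The cause was not tested. Ivl lay between 0.53 and 1.7 and Tgm1 between 0.64 and 2.27 where a value could be had. None could be had, because too few counts were left, for Ivl without vemurafenib 3, for Tgm1 without vemurafenib 1 or 3, and for Casp14 without vehicle 2 or 3 or vemurafenib 1 or 3, so the signs of Ivl and Tgm1 were not checked without the libraries that hold most of their counts. Under refiltering, Flg fell below the filter without vehicle 3 and without vemurafenib 1 and gave no value there. Leaving out libraries with the same genes kept, and the fit for members under the filter, were chosen after seeing the data. Low counts limit the members other than Flg and Sbsn most. The log2 fold change intervals of Flg (-1.34 to 1.48) and Sbsn (-0.75 to 1.29) are also wide.

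Samples with the same replicate number share only the number: the correlation of their deviations from group means was 0.04, -0.08 and -0.326 for numbers 1, 2 and 3. With the number as a replicate block the count of genes that passed was 0, Flg was 0.31 and Sbsn 0.28.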
